A study of Homo sapiens with 9 samples.

Results

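CNBD1 and its neighbours CNGB3, DCAF4L2 and MMP16 lie in a gene-poor stretch of band 8q21, and the H3K9me3 domains over them were followed from position 86000001 to 89500000 of chromosome 8 (GRCh38), a window of 3.5 Mb. The 4 genes were selected on measured values, because CNBD1 was much more covered in the LmnB1 libraries than in the mCherry libraries, and the neighbours were added for their position. They are 4 of 20037 protein-coding genes and 4 of the 10 that overlap the window. All LmnB1 against mCherry values of the 4 genes are therefore given as a description, with no test.

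The study used hTERT RPE-1, an established human cell line from retinal pigment epithelium immortalised with telomerase. The LmnB1 cells were the clones LmnB1_16 and LmnB1_6, which carried a fusion of mCherry to lamin B1, and the mCherry cells were the clones mCherry_3 and mCherry_4, which carried mCherry alone. All 4 clones were treated with doxycycline at 0.05 µg/mL for 24 hours, and the labels call their genotype overexpression of LmnB1 or mCherry. Each clone gave 2 biological replicates, hence 4 H3K9me3 Cut&Run libraries per construct, and 1 input sample of untreated wild-type cells was also labelled. Each construct rests on 2 clones, so a difference between constructs and a difference between these particular clones are hard to separate. The domain lists hold no expression values, and the cell type was not checked against markers.

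H3K9me3 is a histone mark of heterochromatin, and in many long, gene-poor regions it coincides with chromatin held at the nuclear lamina. Lamin B1 is one of the filament proteins of that lamina. CNBD1 encodes a protein with a cyclic nucleotide-binding domain whose role is poorly known. CNGB3 encodes the beta subunit of the cyclic nucleotide-gated channel of cone photoreceptors and is a gene of achromatopsia. DCAF4L2 is named for its likeness to DCAF4, a substrate receptor of CUL4 ubiquitin ligases, and MMP16 encodes a membrane-type matrix metalloproteinase.

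The values are lists of domains, each with a start, an end, H3K9me3 and input read counts and a log2 enrichment over input, whose lowest value was 0.60 in each of the 8 lists. A stretch outside a domain is therefore below the calling limits of its list, which does not show that it lacked the mark. The lists held 11322, 7127, 8641 and 5366 domains in the LmnB1 libraries (LmnB1_16 replicates 1 and 2, then LmnB1_6 replicates 1 and 2). They held 6115, 6060, 8579 and 6928 domains in the mCherry libraries (mCherry_3 replicates 1 and 2, then mCherry_4 replicates 1 and 2), and the libraries keep this order below. H3K9me3 depth relative to input, recovered from the enrichments, was 0.880 to 1.01 in the LmnB1 libraries and 0.421 to 0.859 in the mCherry libraries. Every LmnB1 library was deeper than every mCherry library, and depth and construct cannot be told apart. In 229 domains that both mCherry_3 lists place at exactly the same positions, no difference in read counts beyond sampling noise was detected (chi-square test, p = 0.197), while their lists differed. Chi-square per degree of freedom was 1.08 there and 1.10 over 648 such domains of LmnB1_16 (chi-square test, p = 0.0380). It was 1.73 over 61 such domains of LmnB1_6 (chi-square test, p = 0.000368) and 1.67 over 28 of mCherry_4 (chi-square test, p = 0.0162). Picking domains with identical borders favours agreement. The mCherry_3 pair was kept as 2 libraries, and averaging it into 1 moved the CNBD1 difference to 78.4 percentage points.

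CNBD1 (chromosome 8, 86866415 to 87428652, 562 kb) had the highest mean coverage over the 8 libraries of the genes in the window. Its gene body lay in domains for 78.9%, 78.2%, 98.2% and 90.6% of its length in the LmnB1 libraries, against 11.9%, 15.3%, 5.51% and 4.98% in the mCherry libraries. In the lists as deposited the 2 constructs did not overlap, with the lowest LmnB1 library far above the highest mCherry library. The means were 86.5% ± 9.67 in LmnB1 libraries and 9.43% ± 5.02 in mCherry libraries (SD, n = 4 each), a difference of 77.0 percentage points. At equal covered length per list the constructs overlapped, with both LmnB1_16 libraries at 0%, and the difference was 23.9 points. CNBD1 was 1 of 7 genes called among 2304 tested between the constructs (limma on covered percent, clone as a random block, Benjamini-Hochberg adjusted p below 0.05), a background of 0.304%, and was not called at equal covered length. In 2.69% of the tested genes, CNBD1 among them, every LmnB1 library was above every mCherry library. Since CNBD1 was chosen for this contrast, nothing is read from these counts.

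**Figure D1:**
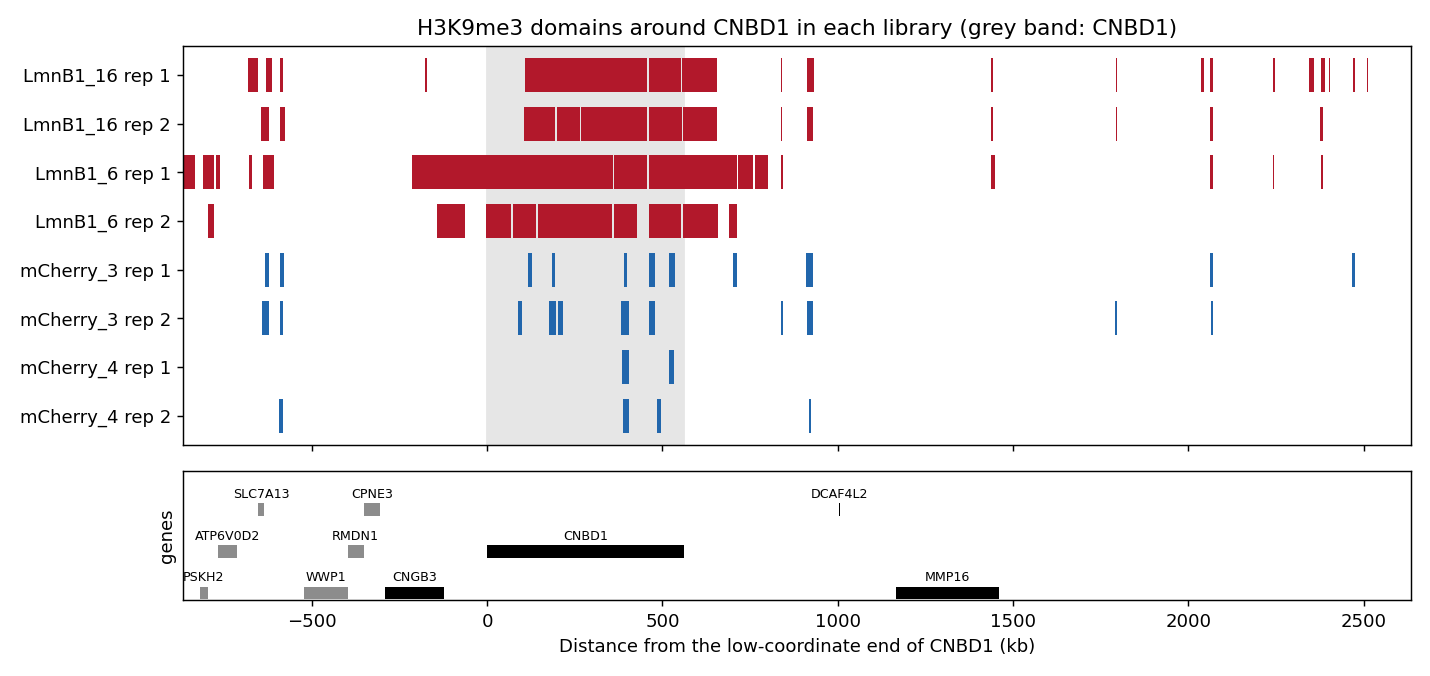
H3K9me3 domains of the 8 libraries (rows, LmnB1 in red above mCherry in blue) along the 3.5 Mb window, as distance in kb from the low-coordinate end of CNBD1, with the 10 protein-coding genes below (the 4 selected genes in black). Long LmnB1 domains fill most of the grey CNBD1 band, where each mCherry library has between 2 and 5 short domains.

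The shape of the coverage differed as well as its amount. In LmnB1_16, gaps of 4 to 6 kb separated 3 domains in replicate 1 and 5 in replicate 2, which formed blocks of 546 kb from 86975001 to 87521000 and of 551 kb from 86970001 to 87521000. Both replicates of LmnB1_16 thus ended at the same position, 92.3 kb past the high-coordinate end of CNBD1, and began 109 and 104 kb inside its low-coordinate end. In LmnB1_6 replicate 1, 5 domains formed a block of 1016 kb from 86652001 to 87668000, which began inside CNGB3 and included a single domain of 573 kb. In LmnB1_6 replicate 2, 6 domains ran from 86863001 to 87526000, with 1 gap of 32 kb from 87295001 to 87327000.

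In the mCherry libraries CNBD1 held 5, 5, 2 and 2 separate domains, which were 10 to 21 kb long. No mCherry domain reached either end of the gene. The low-coordinate end was in a domain in 2 LmnB1 libraries, both of LmnB1_6, and in 0 mCherry libraries, while the high-coordinate end was in a domain in 4 LmnB1 and 0 mCherry libraries. The strand of the gene, and so which end holds its promoter, was not used here.

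Some borders recurred between libraries. All 4 LmnB1 libraries left a gap in CNBD1 that ended at 87327000 or 87328000, and its start was at 87321001 or 87322001 in the libraries other than LmnB1_6 replicate 2. The domains that started just past this gap began at 87327001 or 87328001 in all 4 LmnB1 libraries and in both mCherry_3 libraries, whereas mCherry_4 had no border there. A gap at 87223001 to 87229000 in LmnB1_6 replicate 2 overlapped one at 87225001 to 87229000 in LmnB1_6 replicate 1, and LmnB1_16 was covered there in both replicates. All borders fall on steps of 1000 bp, so a shared position is shared to that resolution.

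A stretch of 10 kb inside CNBD1, from 87256001 to 87266000, was the only part of the window in a domain in all 8 libraries. In the mCherry libraries it was held by domains of 10, 21, 19 and 16 kb, with log2 enrichments of 1.45, 1.06, 0.89 and 0.89. In the LmnB1 libraries the same stretch lay inside domains of 346, 188, 93 and 66 kb, with log2 enrichments of 0.92, 0.76, 1.00 and 0.61. These are averages over domains of different lengths, and the local enrichment of the 10 kb cannot be read from them. In 374 kb of the window all 4 LmnB1 libraries and 0 mCherry libraries had a domain, and 282 kb of it was in CNBD1. The longest unbroken run of this kind was 95 kb, from 87426001 to 87521000, and lay mostly past the high-coordinate end of the gene. In the other direction, 12 kb lay in a domain of an mCherry library and in none of the LmnB1 libraries, 0 kb of it in CNBD1. The window was placed around a gene chosen for this difference, and amounts over the genome were not taken. Nothing is therefore read from the balance of these amounts. Of the 3500 kb, 2226 kb lay in no domain of any library.

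**Figure D2:**
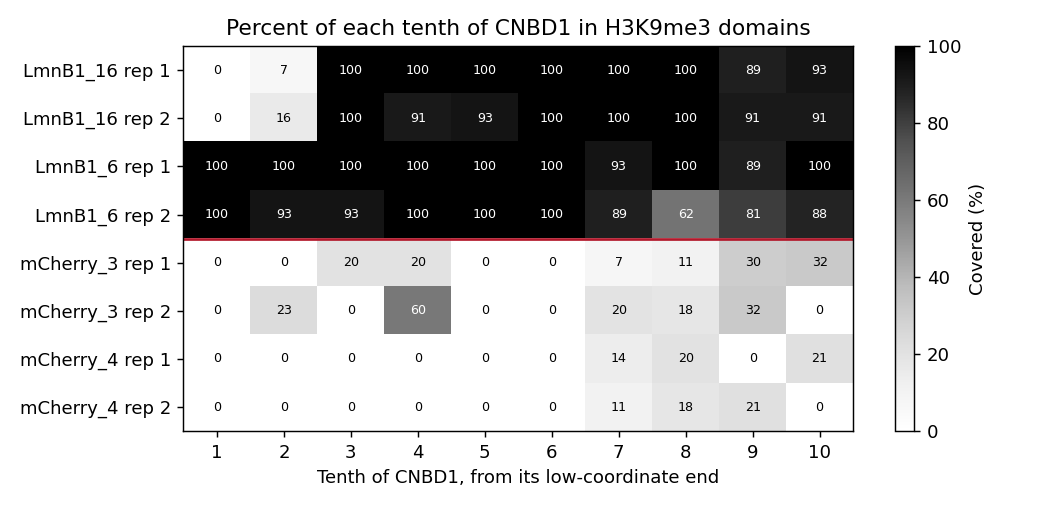
Percent of each of 10 equal pieces of CNBD1 (columns, from the low-coordinate end) in H3K9me3 domains in each library (rows, LmnB1 above the red line and mCherry below it). LmnB1_16 is at 0 in piece 1, where LmnB1_6 is at 100, and all mCherry libraries are at 0 in piece 1 and have their shared coverage in pieces 7 and 8.

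Along 10 equal pieces of CNBD1, the 2 LmnB1 clones parted at the low-coordinate end. Piece 1 was 0% covered in both LmnB1_16 libraries and 100% in both LmnB1_6 libraries, and piece 2 was 6.87% and 15.8% covered in LmnB1_16 against 100% and 92.9% in LmnB1_6. From piece 3 on, each LmnB1 library covered at least 62.3% of each piece. In the mCherry libraries piece 1 was at 0% in all 4, and pieces 5 and 6 were also at 0% in all 4. The highest mCherry value of a piece was 60.5%, for piece 4 in mCherry_3 replicate 2.

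The clone contrasts were not what CNBD1 was chosen for, although a choice for a clear gap between constructs favours genes with small spread within them. That spread enters both a clone difference and its SE, so the p-values of CNBD1 below are given as a description. Over the gene body, the LmnB1_16 minus LmnB1_6 difference was -15.8 percentage points (SE 2.96; limma, adjusted p = 0.0469, n = 2 each), with both LmnB1_16 libraries below both LmnB1_6 libraries. The adjusted p ran between 0.00577 and 0.545 over 15 alternatives and passed in 5 of them. It was lost without either LmnB1_16 replicate (adjusted p = 0.203 without replicate 1 and 0.156 without replicate 2) and without any single mCherry library (0.0924 to 0.107), with CNBD1 lower in LmnB1_16 each time. It was also lost with the replicate number as a block (adjusted p = 0.101), at equal covered length, with the highest-scoring 50% and minus the library mean. In this contrast 196 of 2304 genes, 8.51%, were called, and the median tested gene was 8.09 points higher in LmnB1_16. CNBD1 was 8.36 points higher in mCherry_3 than in mCherry_4 (SE 2.96), which did not pass (limma, adjusted p = 0.217). There 5.95% of the tested genes were called, and the median tested gene was 12.3 points higher in mCherry_3.

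CNGB3 (chromosome 8, 86574179 to 86743634) was covered for 3.54%, 0%, 54.1% and 12.2% of its length in the LmnB1 libraries, against 0% in all 4 mCherry libraries. Most of the LmnB1 coverage was in LmnB1_6 replicate 1, where the long CNBD1 block ran into the gene across its high-coordinate end. The LmnB1 mean was 17.4% ± 24.9 and the mCherry mean 0% ± 0 (SD, n = 4 each), and one LmnB1 library stood at the mCherry value. Without LmnB1_6 replicate 1 the difference of means was 5.24 points, against 17.4 with it. CNGB3 reached the minimum coverage for testing, a mean of 5% over the 8 libraries, mainly through that library, so no test between the clones is given. The high-coordinate end of CNGB3 was in a domain in both LmnB1_6 libraries and in no other library, and the low-coordinate end in none.

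DCAF4L2 (chromosome 8, 87870747 to 87874015) lay in no domain in any of the 8 libraries, at 0% throughout. MMP16 (chromosome 8, 88032011 to 88327483) was covered for 1.35%, 1.69%, 3.72% and 0% in the LmnB1 libraries and for 0% in all 4 mCherry libraries. Its coverage came from domains in a 12-kb region between 88303001 and 88315000, inside the gene. Both genes were under the minimum for testing. CNBD1 and CNGB3 passed it, CNGB3 through the LmnB1 libraries alone.

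**Figure D3:**
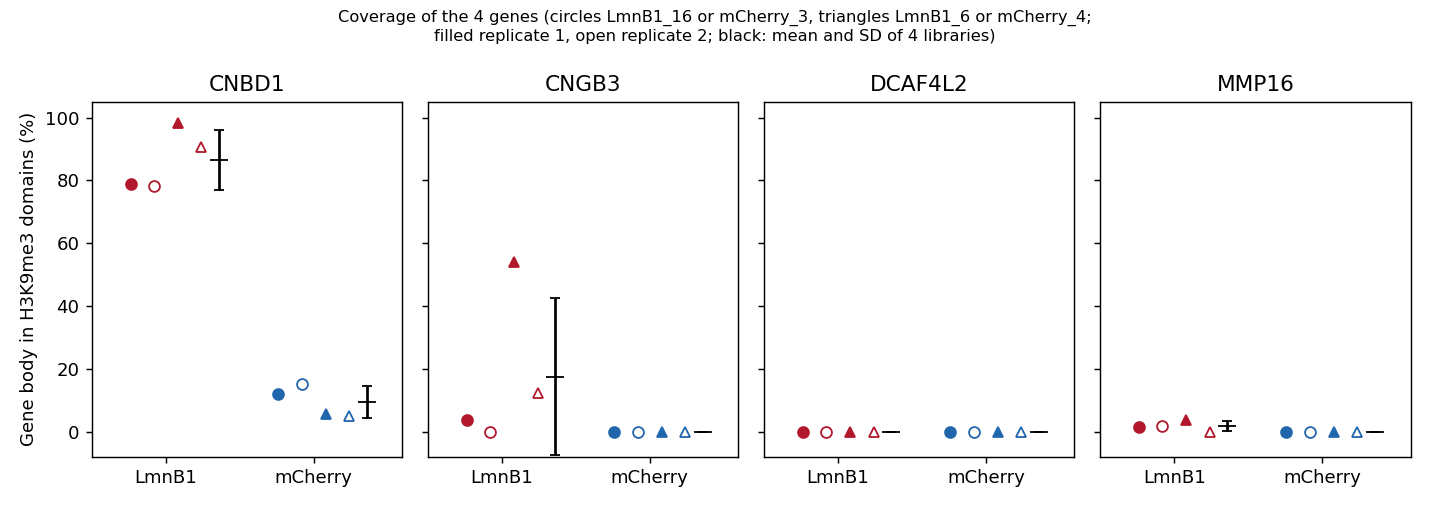
Percent of the gene body in H3K9me3 domains for the 4 selected genes, LmnB1 libraries in red left of mCherry libraries in blue. Circles are LmnB1_16 or mCherry_3, triangles LmnB1_6 or mCherry_4, filled symbols replicate 1 and open symbols replicate 2, and black bars give the mean and SD of 4 libraries; CNBD1 separates the constructs, whereas DCAF4L2 and MMP16 lie at or near 0 in both.

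The other protein-coding genes of the window were little covered. WWP1, an E3 ubiquitin ligase, RMDN1, a regulator of microtubule dynamics, and CPNE3, a calcium-dependent phospholipid-binding protein, lie side by side next to CNGB3 and were at 0% in all 8 libraries. PSKH2, a protein kinase gene, was 61.1% covered and ATP6V0D2, a subunit of the vacuolar proton pump, 7.40% covered in LmnB1_6 replicate 1, and both were at 0% in the other 7 libraries. SLC7A13, an amino acid transporter gene, was 0%, 63.6%, 26.8% and 0% covered in LmnB1 libraries and 0%, 33.0%, 0% and 0% in mCherry libraries, so the constructs overlapped. The nearest genes outside the window, LOC124902048 and RIPK2, were at 0% in all 8.

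Over the whole window, domains covered 683, 616, 1148 and 731 kb in the LmnB1 libraries, against 134, 148, 31 and 44 kb in the mCherry libraries. The means were 794.5 ± 240 kb in LmnB1 and 89.2 ± 60.3 kb in mCherry (SD, n = 4 each), with no overlap between the constructs. The number of domains did overlap, at 19, 13, 15 and 9 in LmnB1 libraries and 11, 11, 2 and 4 in mCherry libraries. The whole lists covered 610, 534, 646 and 357 Mb in LmnB1 libraries and 529, 528, 429 and 320 Mb in mCherry libraries. These ranges overlap, although each LmnB1 list except that of LmnB1_6 replicate 2 was longer than every mCherry list. At equal covered length per list the window amounts overlapped as well. The window was placed around a gene chosen for this contrast, so nothing is read from its lack of overlap. Outside CNBD1 the window held 239, 176, 596 and 222 kb in LmnB1 libraries and 67, 62, 0 and 16 kb in mCherry libraries. The LmnB1 amounts include the parts of the CNBD1 blocks that ran past the gene, so they are not separate from its coverage.

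By bins of 500 kb, the difference was largest in the bin from 87000001 to 87500000, which was 98.0%, 96.2%, 98.0% and 90.2% covered in LmnB1 libraries and 11.2%, 14.6%, 6.20% and 5.60% in mCherry libraries. This bin was 1 of 5 called among 2144 tested (limma, same settings; 0.233%), and it overlaps CNBD1, so it is no separate evidence. All 4 LmnB1 values were above all 4 mCherry values in 9.42% of the tested bins. The bin before it, from 86500001, split the LmnB1 clones, with 6.20% and 6% covered in the LmnB1_16 libraries and 69.6% and 42.4% in the LmnB1_6 libraries, against 2.20%, 2.60%, 0% and 0% in the mCherry libraries. The bin after it, from 87500001, was 8.80%, 8.60%, 33.4% and 10% covered in LmnB1 libraries and 6.40%, 4.40%, 0% and 1.20% in mCherry libraries. In both flanking bins, as in the bin between them, every LmnB1 library was above every mCherry library. The domains over CNBD1 ran into both flanking bins in all 4 LmnB1 libraries, so these bins are no separate evidence either. The 3 bins from 88000001 on, which hold MMP16, stayed at or below 8% in each library.

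Domains merged over libraries made 22 regions of the window, of which 13 were in LmnB1 libraries and no mCherry library, 0 in mCherry libraries and no LmnB1 library, and 9 in both. The regions with no mCherry domain include 8 seen in a single library. As the window was placed around CNBD1, nothing is read from the balance of these counts. A pair of regions, picked for their pattern among the 22, parted the LmnB1 clones and also occurred in mCherry libraries. The region from 86273001 to 86290000 and the region from 87776001 to 87799000, over the pseudogene SOX5P1, had a domain in both LmnB1_16 libraries, in both mCherry_3 libraries and in mCherry_4 replicate 2, and in neither LmnB1_6 library. Neither had a domain in mCherry_4 replicate 1, so the replicates of that clone differed.

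**Figure D4:**
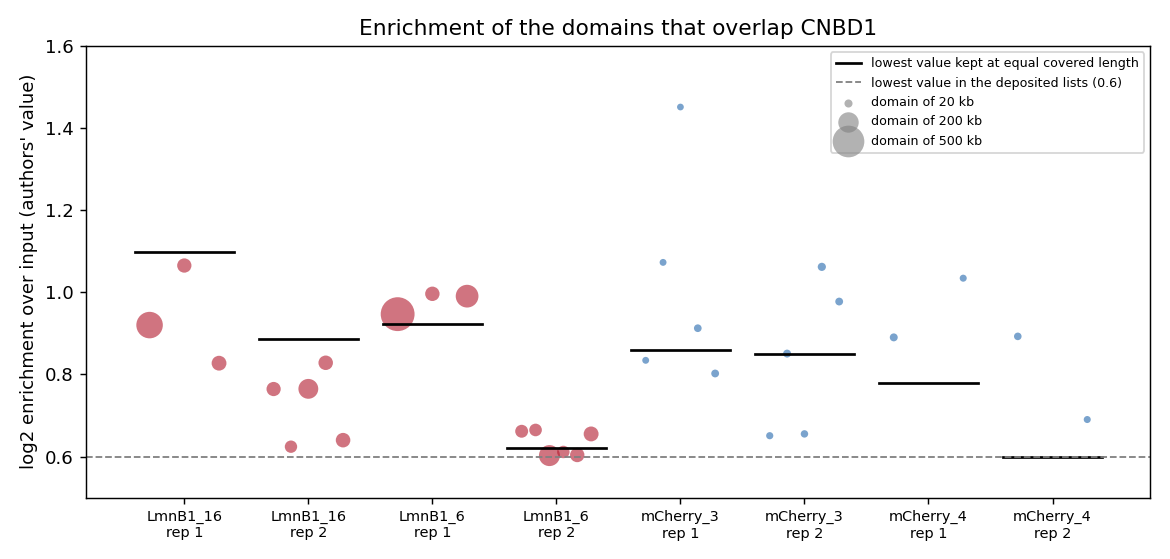
The authors' log2 enrichment over input (y axis) of each domain that overlaps CNBD1, by library (x axis, LmnB1 in red left of mCherry in blue), with point area growing with domain length. Black lines mark the lowest value kept when each list was shortened to the length of the shortest, and the dashed line the lowest value of the lists; the long LmnB1_16 domains lie below their black lines.

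The long LmnB1 domains were weakly to moderately enriched for their own lists. In LmnB1_16 they had log2 enrichments of 0.83 to 1.07 in replicate 1 and 0.62 to 0.83 in replicate 2, where the medians of the whole lists were 1.15 and 0.96. In LmnB1_6 replicate 1 the domains that overlap the gene had 0.95 to 1.00, above the list median of 0.89. In LmnB1_6 replicate 2 all 6 domains had 0.60 to 0.66, just above the limit of the list. The short mCherry domains had 0.80 to 1.45 and 0.65 to 1.06 in mCherry_3 and 0.89 to 1.03 and 0.69 to 0.89 in mCherry_4. Pooled over the domains of CNBD1, log2 enrichment was 0.93, 0.74, 0.96 and 0.63 in LmnB1 libraries and 0.99, 0.87, 0.94 and 0.81 in mCherry libraries, and the constructs overlapped in this value. Domain lengths differ between the constructs, so these enrichments are set side by side and not tested. Window-wide input density in the listed domains was 8.61 to 8.82 reads per kb in LmnB1 libraries and 8.45 to 8.83 in mCherry libraries.

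**Figure D5:**
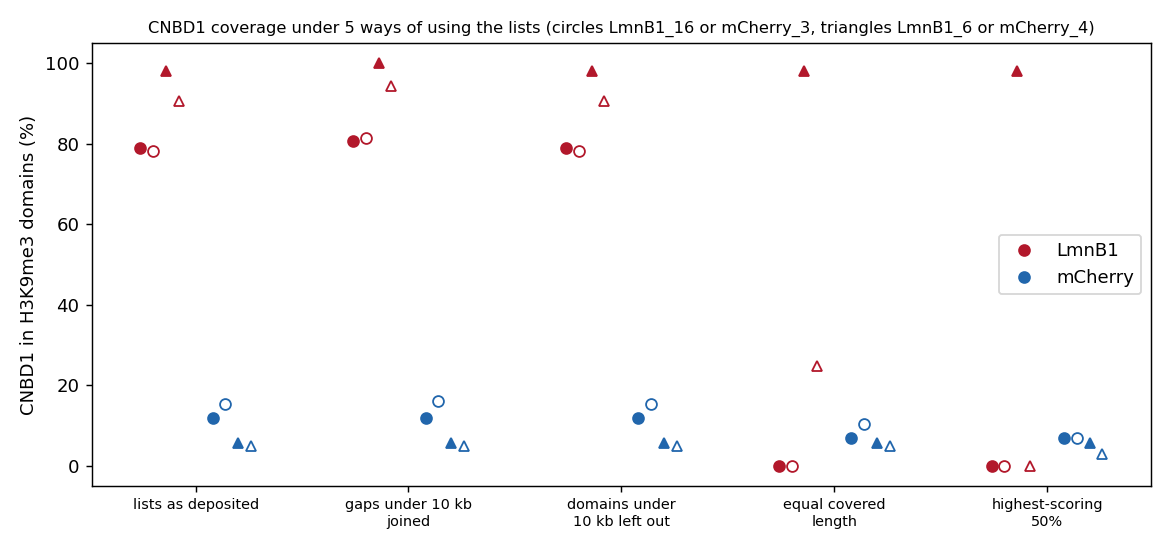
Percent of CNBD1 in domains in each library under 5 ways of using the lists (x axis), LmnB1 in red left of mCherry in blue, symbols by clone and replicate (circles LmnB1_16 or mCherry_3, triangles LmnB1_6 or mCherry_4, filled replicate 1). Under the 2 settings that keep only the more enriched domains, both LmnB1_16 libraries are at 0 and below all mCherry libraries.

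How far CNBD1 separated the constructs depended on whether the weaker domains of each list were kept. When each list was shortened by enrichment to the covered length of the shortest list, CNBD1 was 0%, 0%, 98.2% and 24.8% covered in LmnB1 libraries and 6.76%, 10.3%, 5.51% and 4.98% in mCherry libraries. The constructs then overlapped, with both LmnB1_16 libraries under all 4 mCherry libraries, and the difference of means was 23.9 percentage points. The lowest log2 enrichment kept differed between lists, at 1.10, 0.89, 0.92 and 0.62 in LmnB1 libraries and 0.86, 0.85, 0.78 and 0.60 in mCherry libraries. The list of mCherry_4 replicate 2 was the shortest and was not cut. With the highest-scoring 50% of each list, LmnB1_6 replicate 1 stayed at 98.2%, the other 3 LmnB1 libraries were at 0%, and the mCherry libraries held 6.76%, 6.94%, 5.51% and 2.85%. The window followed the gene: at equal covered length it held 38, 22, 939 and 282 kb in LmnB1 libraries and 66, 95, 31 and 44 kb in mCherry libraries. Joining domains under 10 kb apart, or leaving out domains under 10 kb, kept every LmnB1 library above every mCherry library for CNBD1.

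The genes whose coverage was most like that of CNBD1 over the 8 libraries, by mean absolute difference in covered percent, were TRDN (8.31 points), TSPAN8 (9.23), CLVS2 (10.3), FOXA2 (11.5) and HSPB8 (11.5). TRDN, a protein of the sarcoplasmic reticulum, was the closest and like CNBD1 had some coverage in each mCherry library, at 78.6%, 70.1%, 100% and 72.7% in LmnB1 libraries and 41.8%, 19.5%, 6.66% and 1.90% in mCherry libraries. TSPAN8 (a tetraspanin), CLVS2 (a clavesin), FOXA2 (a forkhead transcription factor) and HSPB8 (a small heat shock protein) were at 0% in all mCherry libraries and at 80.6% or more in each LmnB1 library. CLVS2 ends at 123072925 and TRDN starts at 123216339 of chromosome 6, so these entries are close neighbours. For CNGB3 the closest were PLCL1 (1.11 points), MYRIP (1.72) and FRMD4B (1.87), which also had their highest value in LmnB1_6 replicate 1, at 55%, 45.2% and 44.0%, and were at 0% in the mCherry libraries. All these values are a description of likeness, with no test.

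Genes related to the 4 by family were looked up across the genome. Of 6 cyclic nucleotide-gated channel subunit genes, 3 had a domain in some library, where 20.7% of all protein-coding genes did. CNGA1 was 23.5%, 28.5%, 8.67% and 0% covered in LmnB1 libraries and 8.67%, 0%, 0% and 0% in mCherry libraries. CNGA2 ran the other way, at 5.21%, 0%, 0% and 0% in LmnB1 libraries and 76.3%, 100%, 100% and 0% in mCherry libraries, with overlap because of mCherry_4 replicate 2. CNGA3, which pairs with CNGB3 in the cone channel, and CNGA4 and CNGB1 were at 0% in all 8. Apart from CNGB3, CNGA1 and CNGA2 were the subunits with enough coverage to be tested, and neither was called between the constructs (limma, adjusted p = 0.907 for both). CNGA1 had that coverage mainly through the LmnB1 libraries and CNGA2 mainly through the mCherry libraries, so nothing is read from these tests.

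Of 14 cone phototransduction and achromatopsia genes, 3 had any coverage, among them CNGB3. OPN1SW, the short-wave cone opsin, was 54.2%, 24.0%, 0% and 0% covered in LmnB1 libraries and 24.0%, 0%, 0% and 0% in mCherry libraries, and GRK7, the cone opsin kinase, was at 0% in LmnB1 libraries and at 11.5%, 7.21%, 0% and 0% in mCherry libraries. Of 23 matrix metalloproteinase genes, only MMP16 and MMP26 had any. MMP26 was 100%, 95.1%, 96.9% and 18.8% covered in LmnB1 libraries and 20.9%, 60.1%, 7.30% and 0% in mCherry libraries, so the constructs overlapped. Outside the 4 selected genes, CNGA1, CNGA2, OPN1SW and MMP26 were the listed genes with enough coverage to be tested, and the others were not tested. None of them was called between constructs, where 0.304% of tested genes were called, between the LmnB1 clones (8.51%) or between the mCherry clones (5.95%). At an unadjusted p below 0.05 in limma there were 0 between constructs, CNGA1 and OPN1SW between the LmnB1 clones, and 0 between the mCherry clones. Of all 2304 tested genes, 84, 425 and 482 passed that limit in these 3 contrasts. CNGA1 and OPN1SW reached the minimum coverage for testing mainly through the LmnB1_16 libraries, where they were high. Nothing is therefore read from their clone results. The median LmnB1 minus mCherry difference was 0 points in each of these 3 lists and 0 points over all 20037 genes. Only 20.7% of all protein-coding genes had any coverage, which fixes their median at 0. Over the 2304 tested genes the median difference was 3.73 points, higher in LmnB1. Among genes related by name, CNBD2 had 3.93% and 7.86% in replicate 1 of LmnB1_16 and of LmnB1_6 and 0% elsewhere, and DCAF4 and DCAF4L1, like DCAF4L2, were at 0% in all 8.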

How the data were processed

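The deposited files are 8 lists of H3K9me3 domains, 1 per Cut&Run library, on GRCh38; SICER and DiffBind 3.0.15 are named in the submitters' processing notes without a role. Per the file layout and values, each deposited line gives a domain, the authors' H3K9me3 and input read counts, a p-value and an FDR, a log2 enrichment and a score equal to 100 times that log2. One control serves all lists, as the input counts matched in each of the 2546 domains that recur at fixed positions. Total reads per library were not used here, so no interval on a covered percent could be made.

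Covered percent is the share of a RefSeq gene body (GRCh38.p14) in domains. Differences between constructs were fitted over all genes or 500 kb bins with a mean of at least 5% covered, using limma 3.58.1 with clone as a random block; clone contrasts used 1 mean per clone. P-values were Benjamini-Hochberg adjusted over the whole table, and the fits were tested on simulated data with planted shifts. Apart from these shifts, the simulated data held the spread between replicates and no difference between clones. They cannot show how differences between clones affect the construct contrast. Limma fits assume an even spread, which a percent bounded at 0 and 100 does not have. Same-numbered replicates did not vary together between clones (correlations -0.0245 to 0.0987), so the numbers were not used as pairs. The genes and gene lists were chosen with earlier results of these data known. Named genes were the 4 selected genes, all protein-coding genes of the window and the nearest on each side, the 5 genes most like CNBD1 and 3 most like CNGB3, and list genes that were called or, with none called, the 2 with most coverage; GRK7, CNGA1, CNGA3, CNGA4, CNGB1, CNBD2, DCAF4 and DCAF4L1 were named in addition, after their values were seen. Alternatives were equal covered length, the highest-scoring 50%, joining and length filters, gene flanks, centring on the library mean, no filter, blocks, and leaving out each library; 1 more, the mCherry_3 libraries averaged, was chosen after seeing the data.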

Additional observations from a re-analysis of the deposited data

Results flagged for a closer look

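Among the 4 libraries of a construct, 1 library stood apart from the other 3 in 5 of 25 groups of values with any spread. The rule marks about 1 in 20 groups by chance when values are normally spread. Coverage with many values at 0 is not, so 5 of 25 cannot be set against that rate. LmnB1_6 replicate 1 accounted for 3 of them, with PSKH2 at 61.1%, ATP6V0D2 at 7.40% and the bin from 87500001 at 33.4%. Within mCherry, SLC7A13 stood apart at 33.0% in mCherry_3 replicate 2 and the bin from 89000001 at 1.40% in mCherry_3 replicate 1. In 4 of the 5 the other 3 libraries were at 0, a pattern that the rule always marks.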

How the results depend on the processing

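The CNBD1 difference of 77.0 percentage points was 23.9 at equal covered length and 19.0 with the highest-scoring 50% of each list; in the other 13 alternatives it moved by less than the spread between libraries. Both settings keep the more enriched domains, and the LmnB1_16 domains over CNBD1 lie below their limits. The CNBD1 call between constructs, on which nothing rests since the gene was chosen for that contrast, was lost in both and minus the library mean. The window difference of 705 kb was 261 kb at equal covered length and 203 kb with the highest-scoring 50%. Minus the library mean, MMP16 reversed to -5.01 points and DCAF4L2 moved from 0 to -6.70, because uncovered genes take the sign of the centring; the CNGB3 difference of 17.4 points was 5.24 without LmnB1_6 replicate 1, the library that sets most of its spread. Bins called between constructs numbered 5, against 1 at equal covered length, 0 with the highest-scoring 50% (limma, 62 at an unadjusted p below 0.05), 12 with domains joined, 16 minus the library mean, 8 with the replicate block and 21 with no clone block. Genes called between LmnB1_16 and LmnB1_6 numbered 196, against 87 with the highest-scoring 50% and 320 with no filter; between mCherry_3 and mCherry_4 they numbered 137, against 37 minus the library mean. Leaving out 1 library gave 8 to 60 genes and 3 to 8 bins between constructs (60 without LmnB1_6 replicate 2, and 15 without mCherry_4 replicate 2), 150 to 510 genes between the LmnB1 clones and 134 to 312 between the mCherry clones; a lone library was assumed to vary like the others. Replicate numbers share no source in the labels, and the replicate block gave 7, 174 and 111 genes in these 3 gene contrasts and took the CNBD1 clone call away (limma, adjusted p = 0.101). The cause of the changed counts was not tested.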
